A study of Mus musculus with 6 samples.

Results

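The genes described here encode the T cell receptor signalling machinery, 40 genes picked by symbol with earlier results of these data known. They were grouped into the CD3 and zeta chains, the proximal tyrosine kinases, the adaptors, the effectors, the phosphatases with the Csk axis, and the ubiquitin ligases, lipid kinases and other attenuators. All 40 were found among the 25239 genes counted, and all 40 were among the 12117 genes that passed the filter on low counts. RNA-seq was performed on splenic TCRβ+CD4+CD44-CD127+ T cells purified by flow cytometry from C57BL/6 mice of 3 genotypes, with 2 libraries each. *Ikzf3*+/+ mice carried no variant allele, and *Ikzf3*+/N159S and *Ikzf3*N159S/N159S mice carried a CRISPR-Cas9 knock-in allele that gives a missense form of Aiolos, in heterozygous and homozygous form. The knock-in is in the germline, so every cell of these mice carried it. The sources used here do not give the age of the mice or whether the line came from 1 founder.

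The T cell receptor has no enzyme activity of its own. On ligand binding, Lck phosphorylates the CD3 and zeta chains, Zap70 docks on them and phosphorylates the adaptors Lat and Slp76, and the complex built on these adaptors recruits phospholipase C gamma 1, which starts the calcium and NFAT, Ras and NF-κB branches. Phosphatases, the kinase Csk, the Cbl ligases and the diacylglycerol kinases restrain this cascade, and in naive CD4 T cells it sets both the response to antigen and the weak tonic signal from self ligands.

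Reads counted on genes numbered from 11696461 to 17317260 per library, and the number of genes with a read ranged from 14803 to 18147. The count of *Ikzf3*, as counts scaled by the TMM method to 1000000 reads on genes (CPM, used throughout), was 157 and 154 CPM in *Ikzf3*+/+, 168 and 152 CPM in *Ikzf3*+/N159S and 197 and 203 CPM in *Ikzf3*N159S/N159S libraries, which does not show the base change itself. *Cd4* was at 681 to 994 CPM and *Cd8a* at 1.03 to 4.66 CPM in the 6 libraries. The sum of 12 B cell markers was 208 and 324 CPM in *Ikzf3*+/+, 572 and 950 CPM in *Ikzf3*+/N159S, and 223 and 150 CPM in *Ikzf3*N159S/N159S libraries, and none of the 12 was at 0. Of these markers, 7 were higher in *Ikzf3*+/N159S and 2 were lower in *Ikzf3*N159S/N159S than in *Ikzf3*+/+ libraries by the test used below. The sum of 10 T cell and CD4 identity markers, which include *Cd3d*, *Cd3e* and *Cd3g*, was 6811 and 6552 CPM in *Ikzf3*+/+, 6066 and 5728 CPM in *Ikzf3*+/N159S, and 5738 and 5976 CPM in *Ikzf3*N159S/N159S libraries, with *Cd5* and *Lef1* lower in *Ikzf3*N159S/N159S and *Il7r* lower in *Ikzf3*+/N159S. The sum of 5 regulatory T cell markers was 58.0 and 71.6 CPM in *Ikzf3*+/+, 120 and 92.8 CPM in *Ikzf3*+/N159S, and 59.3 and 55.8 CPM in *Ikzf3*N159S/N159S libraries, with *Ikzf2* higher in *Ikzf3*+/N159S. That of 10 CD8 and NK cytotoxic markers was 68.6 and 72.3, 63.1 and 58.4, and 45.3 and 41.9 CPM in the same order, with *Ncr1* at 0 in at least 1 library. By the same test *Cd8b1* was lower and *Gzma* higher in *Ikzf3*N159S/N159S than in *Ikzf3*+/+ libraries. *Cd8b1* was at 20.1 and 13.2, 12.4 and 8.76, and 3.14 and 2.05 CPM in that order of genotypes. *Gzma* was at 0.429 and 0.404, 1.53 and 0.258, and 2.27 and 3.08 CPM. *Xist* stood at 731 and 824 CPM in both *Ikzf3*+/N159S libraries and at 0.773 to 1.98 CPM in the other 4, so sex and genotype cannot be told apart in comparisons with *Ikzf3*+/N159S. None of the 40 genes lies on chromosome X. In bulk RNA, fewer cells of a type and less RNA per cell cannot be told apart. The part of other cells, of these marker sums and of sex in the results below was not tested.

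The 40 genes together took 1.60 and 1.61% of the reads on genes in *Ikzf3*+/+ libraries, 1.51 and 1.49% in *Ikzf3*+/N159S libraries and 1.50 and 1.45% in *Ikzf3*N159S/N159S libraries. Both variant genotypes thus lay below both *Ikzf3*+/+ libraries in this share. *Ptprc* and *Dgka* had the most reads of the 40 and weigh most in it, and neither passed the test used below. The genes were well covered. Their median level was 274 CPM against 28.6 CPM over all genes tested, and the lowest count of a member in any library was 260 reads.

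Levels were compared between genes only per kilobase of exon, as CPM per kb (exon lengths from GENCODE vM21 on mm10). In *Ikzf3*+/+ T cells *Dgka*, a diacylglycerol kinase that removes the lipid messenger made by phospholipase C, was highest at 688 CPM per kb. *Lat* at 557, the phosphatase gene *Ptprc* (CD45) at 555, *Cd3g* at 406 and *Lck* at 366 CPM per kb followed. *Lat* and *Ptprc*, neighbours in this order, differed by less than the spread between the *Ikzf3*+/+ libraries. *Cd3e* stood at 258, *Cd3d* at 222, *Zap70* at 127, *Lcp2* at 93.5 and *Plcg1* at 76.9 CPM per kb. The lowest were *Nck1* at 8.79, *Tec* at 8.77 and *Ubash3b* at 4.82 CPM per kb, and *Nck1* and *Tec* differed by less than the spread between the *Ikzf3*+/+ libraries. The NFAT genes were graded, with *Nfatc3* at 57.1, *Nfatc1* at 21.6 and *Nfatc2* at 13.3 CPM per kb. The value of *Cd247* (81.9 CPM per kb) is uncertain, since 68.5% of its exon bases in GENCODE vM21 overlap other genes.

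**Figure D1:**
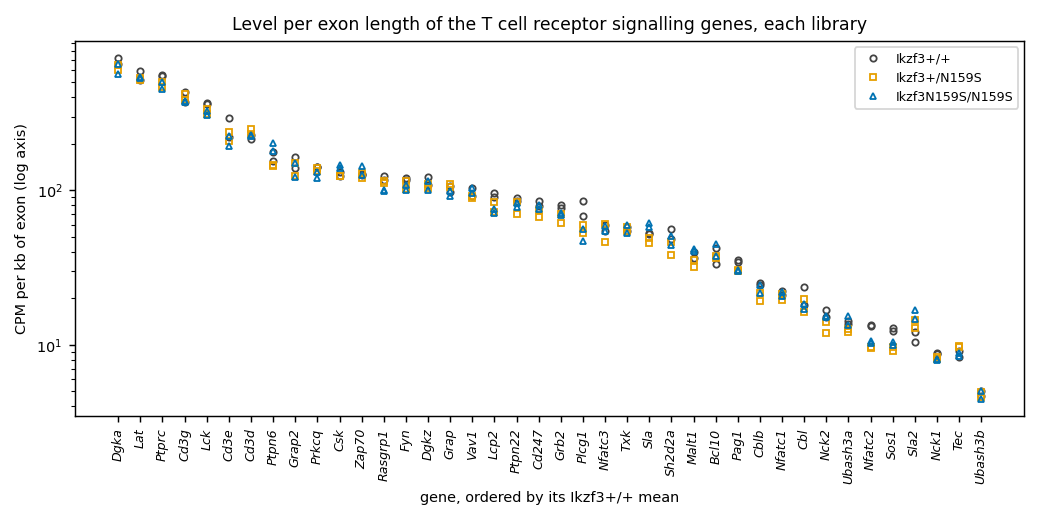
Level of each of the 40 genes in each of the 6 libraries, as CPM per kb of exon on a log axis, ordered by the mean of the *Ikzf3*+/+ libraries. Each symbol is 1 library and its shape gives the genotype. The genes run from *Dgka* at 688 to *Ubash3b* at 4.82 CPM per kb, and within most genes the 3 genotypes lie close together compared with the distance between genes.

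To ask which genes of the machinery differed with the variant, the genotypes were compared gene by gene. FDR below is the p-value of edgeR's quasi-likelihood test after Benjamini-Hochberg adjustment over all 12117 genes, with a threshold of 0.05. Of the 40 genes, 2 passed in *Ikzf3*N159S/N159S against *Ikzf3*+/+ T cells, *Plcg1* and *Nfatc2*, both lower, against 5.26% of all genes tested (3.14% higher and 2.12% lower). In *Ikzf3*+/N159S against *Ikzf3*+/+ T cells 1 of 40 passed, *Nfatc2*, again lower, against 1.75% of all genes (1.15% higher and 0.602% lower). Between *Ikzf3*N159S/N159S and *Ikzf3*+/N159S T cells edgeR's test called 0 of 40, against 1.66% of all genes. The counts called are thus close to what the share over all genes would give for 40 genes. At an unadjusted p under 0.05, 8 of 40 passed in *Ikzf3*N159S/N159S (18.3% of all genes), 9 in *Ikzf3*+/N159S (16.3%) and 4 between the variant genotypes (12.0%). The comparisons with *Ikzf3*+/+ share the same 2 control libraries. For 1 gene with 2 libraries in each arm, the smallest p that an exact permutation test (two-sided) allows is 0.333, and the FDR therefore depends on the spread that edgeR pools over genes.

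The differences were small. The median log2 fold change of the 40 genes was -0.10 in *Ikzf3*N159S/N159S and -0.14 in *Ikzf3*+/N159S T cells against *Ikzf3*+/+, where the median over all genes tested was 0.00 and 0.01. By sign alone, 30 of 40 had a value below 0 in *Ikzf3*N159S/N159S and 36 of 40 in *Ikzf3*+/N159S. Over all 12117 genes tested, 6050 and 5833 did. In *Ikzf3*N159S/N159S, the higher library was still below the lower *Ikzf3*+/+ library for 15 of 40 genes (23.9% of all genes) and the reverse held for 5 (24.3%). For *Ikzf3*+/N159S these numbers were 24 below (22.1%) and 3 above (25.0%). All 40 had a 95% interval of the log2 fold change within 1 of 0 in each comparison. The interval was within 0.5 for 34 of 40 genes in *Ikzf3*N159S/N159S and for 32 of 40 in *Ikzf3*+/N159S, against 49.1 and 50.1% of all genes.

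**Figure D2:**
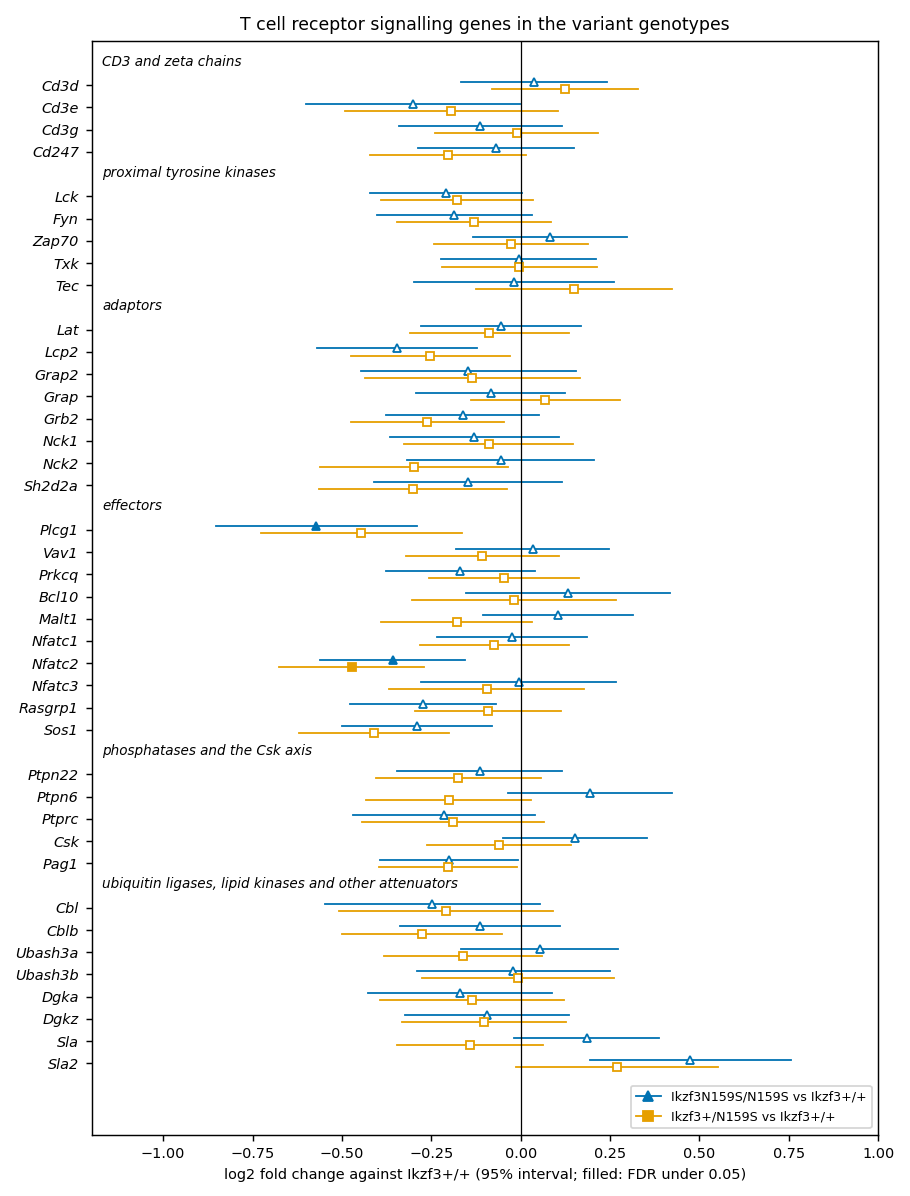
Log2 fold change of each of the 40 genes against *Ikzf3*+/+ T cells, with 95% intervals from the fit of all 6 libraries, in *Ikzf3*N159S/N159S (triangles) and *Ikzf3*+/N159S T cells (squares), grouped by role. Filled symbols mark an FDR under 0.05, which *Plcg1* and *Nfatc2* reach in *Ikzf3*N159S/N159S and *Nfatc2* in *Ikzf3*+/N159S. Most symbols lie left of 0 with intervals that cross or come near it.

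The CD3 and zeta chains, which carry the motifs that Lck phosphorylates, did not pass the test in either variant genotype (0 of 4). *Cd3d* was at 368 and 348 CPM in *Ikzf3*+/+, 376 and 404 CPM in *Ikzf3*+/N159S and 369 and 366 CPM in *Ikzf3*N159S/N159S libraries. *Cd3e* was at 429 and 324 CPM in *Ikzf3*+/+, 307 and 351 CPM in *Ikzf3*+/N159S and 284 and 328 CPM in *Ikzf3*N159S/N159S libraries. The first *Ikzf3*+/+ library was highest for *Cd3e*, and the other *Ikzf3*+/+ library lay among the variant ones. *Cd3g* was at 446 and 385 CPM in *Ikzf3*+/+, 432 and 392 CPM in *Ikzf3*+/N159S and 385 and 383 CPM in *Ikzf3*N159S/N159S libraries. *Cd247*, the zeta chain, was at 387 and 360, 343 and 306, and 343 and 368 CPM in the same order. In *Ikzf3*N159S/N159S the log2 fold changes were 0.04 for *Cd3d* (FDR = 0.886), -0.30 for *Cd3e* (FDR = 0.270), -0.11 for *Cd3g* (FDR = 0.634) and -0.07 for *Cd247* (FDR = 0.785). The interval for *Cd3d*, from -0.17 to 0.24, covers at most a small change, while that for *Cd3e* ran from -0.60 to -0.0028. In *Ikzf3*+/N159S the 4 values ran from -0.20 (*Cd247*) to 0.12 (*Cd3d*). Exon overlap with a neighbouring gene touches 9.23% of *Cd3e*.

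Among the proximal tyrosine kinases, 0 of 5 passed in either genotype. *Lck*, which phosphorylates the receptor chains, was at 842 and 855 CPM in *Ikzf3*+/+, 775 and 725 CPM in *Ikzf3*+/N159S and 755 and 713 CPM in *Ikzf3*N159S/N159S libraries. All 4 variant libraries lay below both *Ikzf3*+/+ libraries, with log2 fold changes of -0.21 (standard error 0.10, FDR = 0.284) in *Ikzf3*N159S/N159S and -0.18 (FDR = 0.400) in *Ikzf3*+/N159S. *Zap70*, the kinase that docks on the phosphorylated chains, was at 284 and 288 CPM in *Ikzf3*+/+, 292 and 270 CPM in *Ikzf3*+/N159S and 322 and 284 CPM in *Ikzf3*N159S/N159S libraries. These groups overlapped, and in *Ikzf3*N159S/N159S *Zap70* had a log2 fold change of 0.08 with an interval from -0.13 to 0.30. *Fyn*, a kinase related to *Lck*, had the values -0.19 and -0.13 in *Ikzf3*N159S/N159S and *Ikzf3*+/N159S. *Txk*, a Tec family kinase, stood near 0 in both, and *Tec* was -0.02 and 0.15.

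The adaptors, which hold the signalling complex together, gave 0 of 8 calls in either genotype. All 8 values in *Ikzf3*N159S/N159S were below 0, from -0.35 to -0.06, against 6050 of the 12117 genes tested. *Lat*, the membrane scaffold, was at 743 and 645 CPM in *Ikzf3*+/+, 644 and 662 CPM in *Ikzf3*+/N159S and 663 and 671 CPM in *Ikzf3*N159S/N159S libraries. The groups overlapped for *Lat*, and in *Ikzf3*N159S/N159S its value was -0.06 on the log2 scale (interval from -0.28 to 0.17). *Lcp2*, which encodes Slp76, was at 380 and 403 CPM in *Ikzf3*+/+, 352 and 305 CPM in *Ikzf3*+/N159S and 318 and 298 CPM in *Ikzf3*N159S/N159S libraries. All 4 variant libraries were below both *Ikzf3*+/+ libraries for *Lcp2*. Its log2 fold change was -0.35 (standard error 0.10, FDR = 0.0815) in *Ikzf3*N159S/N159S and -0.25 (FDR = 0.247) in *Ikzf3*+/N159S. DESeq2 put the first at an adjusted p of 0.0429. The first did not pass with no filter on low counts, or under the legacy test or the replicate block described below. With each library left out in turn, it ranged from -0.40 to -0.29. Another gene overlaps 6.73% of the exon bases of *Lcp2*. In *Ikzf3*+/N159S, 4 of the 8 adaptors had an unadjusted p under 0.05, as did 9 of all 40 members and 16.3% of all genes. Besides *Lcp2* these were *Grb2*, which links to the Ras exchange factor Sos1 (-0.26), *Nck2*, which links to the actin cytoskeleton (-0.30), and *Sh2d2a*, a T cell adaptor that binds Lck (-0.30). None of the 4 passed the adjusted threshold, with FDRs from 0.216 to 0.248. *Grap2*, which encodes the Gads protein that joins Lat to Slp76, had log2 fold changes of -0.15 in *Ikzf3*N159S/N159S and -0.14 in *Ikzf3*+/N159S. The related *Grap* had -0.08 and 0.07, and *Nck1*, the relative of *Nck2*, had -0.13 and -0.09.

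**Figure D3:**
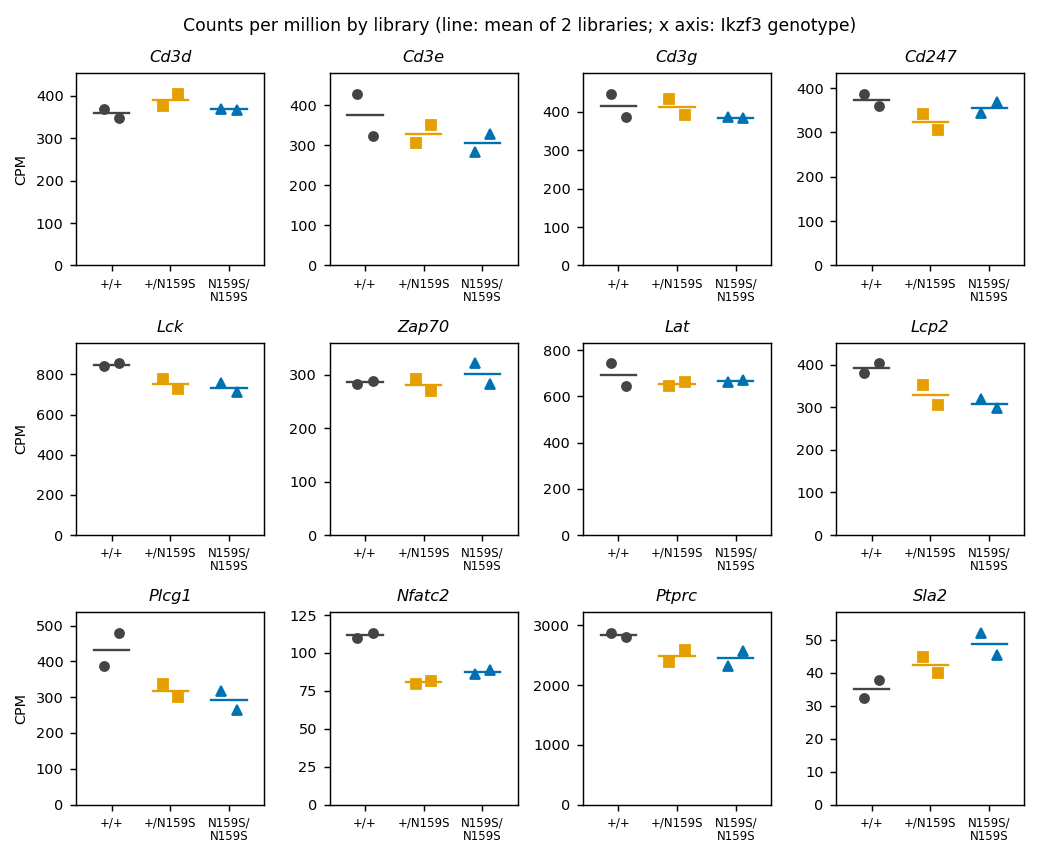
CPM in each library for the chains, *Lck*, *Zap70*, *Lat*, *Lcp2*, *Plcg1*, *Nfatc2*, and the members with the largest change among the phosphatases (*Ptprc*) and the attenuators (*Sla2*), with axes from 0 and a line at the mean of 2 libraries. Both variant genotypes lie below both *Ikzf3*+/+ libraries for *Lck*, *Lcp2*, *Plcg1*, *Nfatc2* and *Ptprc* and above them for *Sla2*, while *Cd3d*, *Zap70* and *Lat* lie at similar heights in all 3 genotypes.

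The effectors held both genes that passed, 2 of 10 in *Ikzf3*N159S/N159S. *Plcg1* encodes phospholipase C gamma 1, which cleaves a membrane lipid into the messengers that release calcium and activate protein kinase C theta and RasGRP1. Its level was 386 and 480 CPM in *Ikzf3*+/+, 336 and 300 CPM in *Ikzf3*+/N159S and 318 and 264 CPM in *Ikzf3*N159S/N159S libraries. All 4 variant libraries were below both *Ikzf3*+/+ libraries, and the *Ikzf3*+/+ libraries were themselves far apart. In *Ikzf3*N159S/N159S T cells *Plcg1* fell by 32.7%, which is -0.57 on the log2 scale (standard error 0.13, interval from -0.85 to -0.29, FDR = 0.0254). In *Ikzf3*+/N159S T cells its log2 fold change was -0.45 (standard error 0.13, FDR = 0.113), and the variant genotypes differed from each other by -0.13 (interval from -0.41 to 0.15). The call in *Ikzf3*N159S/N159S was lost without *Ikzf3*+/+ replicate 2, the highest library (-0.40, FDR = 0.237), and without *Ikzf3*N159S/N159S replicate 2, the lowest (-0.43, FDR = 0.211). DESeq2 gave an adjusted p of 0.00107 in *Ikzf3*N159S/N159S and 0.0306 in *Ikzf3*+/N159S. In *Ikzf3*+/N159S *Plcg1* did not pass under the legacy test or the replicate block described below. With each library left out in turn, its log2 fold change there ranged from -0.59 to -0.28.

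*Nfatc2* encodes NFAT1, a transcription factor that enters the nucleus when calcineurin removes its phosphates. Its level was 110 and 113 CPM in *Ikzf3*+/+, 79.4 and 81.6 CPM in *Ikzf3*+/N159S and 85.9 and 88.4 CPM in *Ikzf3*N159S/N159S libraries. Replicates agreed within a few CPM, the 3 genotypes did not overlap, and the *Ikzf3*+/N159S libraries were lowest. *Nfatc2* fell by 27.9% in *Ikzf3*+/N159S T cells (log2 fold change -0.47, standard error 0.09, FDR = 0.0283) and by 22.0% in *Ikzf3*N159S/N159S T cells (log2 fold change -0.36, standard error 0.09, FDR = 0.0481). The call in *Ikzf3*N159S/N159S sits at the threshold. It was lost under edgeR's legacy quasi-likelihood test, the package default (FDR = 0.0501), under DESeq2 (adjusted p = 0.0627), without the filter on low counts (FDR = 0.0855) and when any 1 of the 6 libraries was left out (FDR from 0.0520 to 0.271), and under the replicate block (FDR = 0.0891), with the log2 fold change between -0.38 and -0.33 throughout. The call in *Ikzf3*+/N159S was kept under DESeq2 (adjusted p = 0.00468) and when either *Ikzf3*N159S/N159S library was left out, and was lost without either *Ikzf3*+/+ or either *Ikzf3*+/N159S library (FDR from 0.0900 to 0.213) and under the replicate block (FDR = 0.0548). Set against the midpoint between *Ikzf3*+/+ and *Ikzf3*N159S/N159S in log2 units, the heterozygous value of *Nfatc2* was off by -0.29 (FDR = 0.147). By edgeR's test 0 of 40 genes were off the midpoint, against 1.03% of all genes (0.825% above it and 0.206% below it), and 7 of 40 had an unadjusted p under 0.05 (11.5% of all genes).

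Both genes lie on chromosome 2 of mm10 (GENCODE vM21), *Plcg1* from 160731300 to 160775760 on the plus strand and *Nfatc2* from 168476410 to 168601657 on the minus strand. Their upstream sequences are shown because they are the members past the threshold. Each is the 250 bases before a RefSeq transcript start on GRCm38.p6, the assembly behind mm10, printed 5′ to 3′ on the strand of the gene. Aiolos and Ikaros bind DNA through zinc fingers that recognise a GGGAA core, and capitals mark GGGAA or its reverse complement TTCCC. The regions are chr2:160731060-160731309 for *Plcg1* and chr2:168601658-168601907 and chr2:168590366-168590615 for the upstream and the downstream start of *Nfatc2*.
Plcg1: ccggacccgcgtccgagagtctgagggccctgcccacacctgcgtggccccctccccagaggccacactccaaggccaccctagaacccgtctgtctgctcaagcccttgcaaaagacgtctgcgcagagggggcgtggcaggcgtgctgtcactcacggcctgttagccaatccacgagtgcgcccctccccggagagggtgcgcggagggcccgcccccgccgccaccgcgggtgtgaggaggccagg
Nfatc2 upstream start: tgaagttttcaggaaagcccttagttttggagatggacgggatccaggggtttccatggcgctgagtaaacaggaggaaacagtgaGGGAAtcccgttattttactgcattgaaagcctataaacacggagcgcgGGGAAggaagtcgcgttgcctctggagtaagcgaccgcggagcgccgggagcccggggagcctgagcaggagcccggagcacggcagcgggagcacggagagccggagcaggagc
Nfatc2 downstream start: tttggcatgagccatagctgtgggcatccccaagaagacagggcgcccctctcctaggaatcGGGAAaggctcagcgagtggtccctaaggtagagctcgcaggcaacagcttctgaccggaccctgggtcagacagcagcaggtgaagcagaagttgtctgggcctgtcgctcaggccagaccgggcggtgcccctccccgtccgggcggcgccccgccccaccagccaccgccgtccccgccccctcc
The *Plcg1* window held 0 copies of GGGAA, and the *Nfatc2* windows held 2 and 1. The longer motif TGGGAA, read on both strands, was in none of these windows. It was in 14 of 50 upstream windows of 34 members with a window in the promoter table used (28.0%) and in 21.6% of all 32851 windows of this length. GGGAA, which is contained in TGGGAA and was searched after TGGGAA gave no match here, was in 28 of 50 (56.0%) and in 56.2%. A match is a run of letters and not a measured binding site, and binding was not analysed here.

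The other effectors did not pass. *Sos1*, a Ras exchange factor, was at 108 and 103 CPM in *Ikzf3*+/+, 81.8 and 77.0 CPM in *Ikzf3*+/N159S and 84.5 and 88.1 CPM in *Ikzf3*N159S/N159S libraries. The groups did not overlap, with the *Ikzf3*+/N159S libraries lowest as for *Nfatc2*, but the log2 fold changes of *Sos1* (-0.41 in *Ikzf3*+/N159S, FDR = 0.0585, and -0.29 in *Ikzf3*N159S/N159S, FDR = 0.121) stayed outside the threshold. In *Ikzf3*+/N159S *Sos1* passed under DESeq2 (adjusted p = 0.0321) and with no filter on low counts. It did not pass there under edgeR's legacy test or the replicate block. With each library left out in turn, its log2 fold change in *Ikzf3*+/N159S ranged from -0.46 to -0.36. *Rasgrp1*, the Ras exchange factor activated by diacylglycerol, was at 646 and 614 CPM in *Ikzf3*+/+, 600 and 582 CPM in *Ikzf3*+/N159S and 516 and 527 CPM in *Ikzf3*N159S/N159S libraries. It followed the number of variant alleles library by library, as did *Prkcq* and *Nck1*, also falling, and *Sla2*, rising. The share of all genes in such an order is not given here. The log2 fold changes of *Rasgrp1* were -0.27 in *Ikzf3*N159S/N159S (FDR = 0.135) and -0.09 in *Ikzf3*+/N159S (FDR = 0.669). *Prkcq*, protein kinase C theta, had -0.17 and -0.05 in *Ikzf3*N159S/N159S and *Ikzf3*+/N159S. *Vav1*, a Rac exchange factor, had 0.03 and -0.11, and *Bcl10*, which assembles the NF-κB complex with Malt1, had 0.13 and -0.02. The other NFAT genes showed no detectable change. *Nfatc1* had log2 fold changes of -0.02 (interval from -0.23 to 0.18) in *Ikzf3*N159S/N159S and -0.07 in *Ikzf3*+/N159S, and *Nfatc3* had -0.01 (interval from -0.28 to 0.27) and -0.10.

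Of the phosphatases and the Csk axis, 0 of 5 passed. *Ptprc*, which encodes CD45, the phosphatase that keeps Lck ready by removing its inhibitory phosphate, was at 2875 and 2807 CPM in *Ikzf3*+/+, 2390 and 2594 CPM in *Ikzf3*+/N159S and 2321 and 2576 CPM in *Ikzf3*N159S/N159S libraries. All 4 variant libraries were lower, but the log2 fold changes of -0.21 (FDR = 0.368) and -0.19 (FDR = 0.453) did not exceed the spread enough to pass. *Pag1*, which anchors Csk at the membrane, was at 286 and 292 CPM in *Ikzf3*+/+, 250 and 251 CPM in *Ikzf3*+/N159S and 253 and 250 CPM in *Ikzf3*N159S/N159S libraries. Its values were nearly equal in both variant genotypes, at -0.20 in each (FDR = 0.255 in *Ikzf3*N159S/N159S and 0.280 in *Ikzf3*+/N159S). *Ptpn22*, which dephosphorylates Lck and Zap70, had -0.11 and -0.17 in *Ikzf3*N159S/N159S and *Ikzf3*+/N159S.

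Of the ubiquitin ligases, lipid kinases and other attenuators, 0 of 8 passed. *Sla2*, an adaptor that lowers surface receptor levels, was at 32.2 and 37.7 CPM in *Ikzf3*+/+, 44.7 and 39.8 CPM in *Ikzf3*+/N159S and 52.0 and 45.3 CPM in *Ikzf3*N159S/N159S libraries. It was the member with the highest log2 fold change in *Ikzf3*N159S/N159S, 0.47 (standard error 0.13, interval from 0.19 to 0.76, FDR = 0.0585), and the 3 genotypes did not overlap. In *Ikzf3*N159S/N159S *Sla2* passed with no filter on low counts (FDR = 0.0201) and with the block for genes detected described below. It did not pass there under DESeq2 (adjusted p = 0.0905), the legacy test (FDR = 0.0578) or the replicate block (FDR = 0.0960). When single libraries were dropped, the rise of *Sla2* there stayed between 0.37 and 0.60 in log2 units. The value in *Ikzf3*+/N159S was 0.27 (FDR = 0.329). Reads on *Sla2* are uncertain, since 17.2% of its exon bases overlap *Rab5if*. *Cbl* and *Cblb*, the ligases that mark receptor components for degradation, had -0.25 and -0.11 in *Ikzf3*N159S/N159S and -0.21 and -0.28 in *Ikzf3*+/N159S. *Dgka* and *Dgkz*, the diacylglycerol kinases, had -0.17 and -0.09 in *Ikzf3*N159S/N159S and -0.14 and -0.10 in *Ikzf3*+/N159S. *Ubash3a* and *Ubash3b*, grouped here with the other attenuators, lay between -0.16 and 0.05 in both genotypes.

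*Ikzf3*N159S/N159S and *Ikzf3*+/N159S T cells were then compared directly. Of the 40 genes, 4 had an unadjusted p under 0.05, all higher in *Ikzf3*N159S/N159S, against 12.0% of all genes, and none of the 4 passed the adjusted threshold. *Ptpn6*, which encodes the phosphatase SHP-1, was at 405 and 463 CPM in *Ikzf3*+/+, 383 and 372 CPM in *Ikzf3*+/N159S and 527 and 467 CPM in *Ikzf3*N159S/N159S libraries. The *Ikzf3*+/+ libraries lay between the variant genotypes, which differed by 0.40 in log2 units (standard error 0.11, interval from 0.17 to 0.63, FDR = 0.0972). DESeq2 put this difference at an adjusted p of 0.0154, and it also passed with no filter on low counts. It did not pass under edgeR's legacy test or the replicate block. With each library left out in turn, it ranged from 0.31 to 0.50. Of the exon bases of *Ptpn6*, 7.48% overlap a predicted gene. *Sla*, a relative of *Sla2*, was at 170 and 166 CPM in *Ikzf3*+/+, 147 and 158 CPM in *Ikzf3*+/N159S and 186 and 197 CPM in *Ikzf3*N159S/N159S libraries, a difference of 0.33 between the variant genotypes (FDR = 0.125). *Csk*, the kinase that adds the inhibitory phosphate to Lck, was at 417 and 441, 411 and 411, and 489 and 463 CPM in the same order, with a difference of 0.21 (FDR = 0.386). *Malt1*, the protease of the NF-κB branch, was at 197 and 214, 190 and 173, and 225 and 216 CPM, with a difference of 0.28 (FDR = 0.222). Libraries of the variant genotypes did not overlap for 12 genes higher (19.5% of all genes) and 7 lower (21.6%) in *Ikzf3*N159S/N159S. The mean of *Ikzf3*+/N159S lay between the means of the other genotypes for 16 of 40 genes, against 38.7% of all genes tested.

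**Figure D4:**
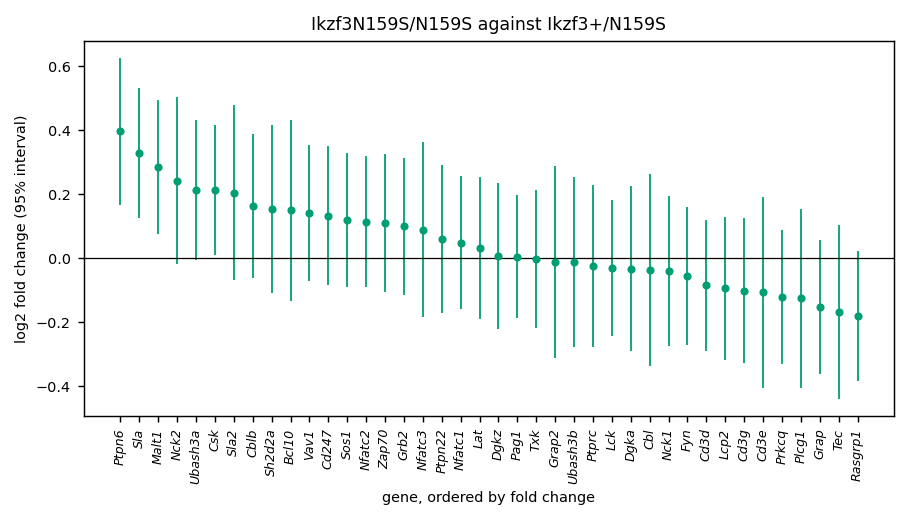
Log2 fold change with its 95% interval between *Ikzf3*N159S/N159S and *Ikzf3*+/N159S T cells for the 40 genes, ordered by size. *Ptpn6*, *Sla*, *Malt1* and *Csk* have intervals above 0, and the lowest value is that of *Rasgrp1* at -0.18, whose interval crosses 0.

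Within each genotype 1 library had more genes with a read than the other, with 16873 against 15888 in *Ikzf3*+/+, 18147 against 15079 in *Ikzf3*+/N159S and 17571 against 14803 in *Ikzf3*N159S/N159S libraries. With 2 libraries per genotype such a split can nearly always be made, and it came from the same counts that were tested. Deviations along it correlated between genotypes at only 0.17, 0.22 and 0.24, the same size as for the replicate numbers below. A term for this split, known from earlier results of these data, left the fold changes almost as they were but lowered their standard errors, and raised the calls over all genes from 5.26% to 14.5% in *Ikzf3*N159S/N159S, from 1.75% to 11.7% in *Ikzf3*+/N159S and from 1.66% to 7.24% between the variant genotypes. With it, 8 of 40 members passed in *Ikzf3*N159S/N159S, adding *Lcp2*, *Cd3e*, *Sos1*, *Rasgrp1* and *Cbl* (lower) and *Sla2* (higher) to *Plcg1* and *Nfatc2*. In *Ikzf3*+/N159S, 7 passed, adding *Plcg1*, *Sos1*, *Lcp2*, *Grb2*, *Cblb* and *Sh2d2a*, all lower, to *Nfatc2*. Between the variant genotypes 3 passed, *Ptpn6*, *Sla* and *Malt1*, all higher in *Ikzf3*N159S/N159S. Departures from the midpoint numbered 7 of 40 with this term, against 6.08% of all genes, and all 7 were below it.

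Another 56 genes of the same pathway, listed with earlier results of these data known, were all tested. Of these, 5 passed in *Ikzf3*N159S/N159S T cells, 2 higher and 3 lower, against 5.26% of all genes tested, and 3 passed in *Ikzf3*+/N159S T cells, 1 higher and 2 lower, against 1.75%. *Cd6*, a costimulatory receptor that binds Slp76, was at 465 and 498 CPM in *Ikzf3*+/+, 423 and 350 CPM in *Ikzf3*+/N159S and 281 and 254 CPM in *Ikzf3*N159S/N159S libraries. It was ordered by the number of variant alleles with no overlap, and changed by -0.85 in log2 units (standard error 0.11, FDR = 0.00130) in *Ikzf3*N159S/N159S, and it also differed between the variant genotypes (FDR = 0.0378). The call against *Ikzf3*+/+ was kept in all 6 fits that left out 1 library. *Trat1*, a transmembrane adaptor that stabilises the receptor complex, was at 193 and 226 CPM in *Ikzf3*+/+, 153 and 137 CPM in *Ikzf3*+/N159S and 139 and 131 CPM in *Ikzf3*N159S/N159S libraries. It fell in both variant genotypes, by 0.64 on the log2 scale in *Ikzf3*N159S/N159S (FDR = 0.00554) and by 0.53 in *Ikzf3*+/N159S (FDR = 0.0320). Both calls of *Trat1* were lost without *Ikzf3*+/+ replicate 2 and without replicate 2 of the variant genotype compared. *Tespa1*, which links phospholipase C gamma 1 to the calcium channel of the endoplasmic reticulum, was at 116 and 137, 80.7 and 90.5, and 99.6 and 94.1 CPM in the same order, and fell in *Ikzf3*+/N159S (log2 fold change -0.57, FDR = 0.0283), a call lost without *Ikzf3*+/+ replicate 2 and without *Ikzf3*+/N159S replicate 1.

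On the calcium branch, *Ppp3ca*, a catalytic subunit of the calcineurin that dephosphorylates NFAT, was at 71.6 and 66.7 CPM in *Ikzf3*+/+, 62.7 and 71.1 CPM in *Ikzf3*+/N159S and 45.3 and 54.4 CPM in *Ikzf3*N159S/N159S libraries. It was lower in *Ikzf3*N159S/N159S (log2 fold change -0.47, FDR = 0.0450). *Orai1*, the calcium channel of the plasma membrane, was at 30.7 and 31.3, 33.2 and 31.3, and 44.4 and 41.6 CPM, and was higher in *Ikzf3*N159S/N159S (log2 fold change 0.47, FDR = 0.0345). The other calcium branch genes of the list, *Ppp3cb*, *Ppp3r1*, *Stim1*, *Stim2*, *Itpr1* and *Itpr2*, did not pass in *Ikzf3*N159S/N159S, with log2 fold changes from -0.19 to 0.08. *Akt1*, a kinase of the phosphoinositide branch, was at 134 and 128, 147 and 136, and 177 and 163 CPM, and was higher in *Ikzf3*N159S/N159S (log2 fold change 0.38, FDR = 0.0422). The calls of *Orai1* and *Akt1* were lost when any 1 *Ikzf3*+/+ or *Ikzf3*N159S/N159S library was left out, and that of *Ppp3ca* was lost without either *Ikzf3*+/+ library and without *Ikzf3*N159S/N159S replicate 1. *Ptprj*, a receptor phosphatase, was at 2.66 and 2.42 CPM in *Ikzf3*+/+, 5.78 and 11.1 CPM in *Ikzf3*+/N159S and 3.37 and 2.78 CPM in *Ikzf3*N159S/N159S libraries. Its rise in *Ikzf3*+/N159S (log2 fold change 1.73, FDR = 0.0347) was largest in the library with 950 CPM of B cell markers, and the part of B cells in it was not tested. The call of *Ptprj* was lost without that library, *Ikzf3*+/N159S replicate 2, and without either *Ikzf3*+/+ library.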

How the data were processed

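The 6 libraries of splenic T cells, 2 per genotype, were analysed. The authors prepared non-stranded poly(A) libraries, used Trimmomatic for trimming, HISAT2 for mapping to mm10 and HTSeq for counting on refGene annotation, as the study's methods and the submitters' processing notes state. The deposited values are raw counts per gene (column 2 of each file), not normalized. Whether counting used strand is not given in the sources used here, so overlapping genes are uncertain. Exon lengths and overlaps were taken from GENCODE vM21, and whether the overlapping genes are in the refGene annotation used for counting was not checked. Rows for reads on no gene, ambiguous, low-quality, unaligned or multiply aligned (together 42.3 to 49.3% of entries) stayed out of library sizes and tests.

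The tests were run with edgeR 4.0.16 under R 4.3.3. Low counts were removed with filterByExpr (minimum count 10, minimum total count 15), libraries were scaled by TMM, and 1 quasi-likelihood model with a coefficient per genotype was fitted to all 6 libraries. P-values were adjusted by Benjamini-Hochberg over all genes tested, with a threshold of 0.05. The test was run with legacy = FALSE. The plan named the edgeR default as the main setting and the legacy test as the alternative, but the default of this version is the legacy test. The setting was made explicit after the calls under both were seen, to follow earlier processing of these data, and it decides the call of *Nfatc2* in *Ikzf3*N159S/N159S. Both values are given.

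Members and lists were chosen with earlier results of these data known. Given in every library were the members past the threshold, the CD3 and zeta chains, *Lck*, *Zap70*, *Lat*, *Lcp2*, *Plcg1* and the member of each role with the largest change in *Ikzf3*N159S/N159S, and *Sos1*, *Rasgrp1*, *Pag1*, *Ptpn6*, *Sla*, *Csk*, *Malt1* and other pathway genes were added after their values were seen. Alternatives were DESeq2 1.42.0, its size factors in the edgeR fit, no filter on low counts, the legacy test, a replicate block, a block for genes detected and each library left out. The edgeR comparison was tested on simulated counts. The study's methods count mice per genotype, so the libraries of a genotype were taken as separate mice, although no label ties a library to a mouse. Replicates differed beyond sampling noise. Myeloid and erythroid marker sums ranged over 58.9 to 84.2 and 0.687 to 5.61 CPM.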

Additional observations from a re-analysis of the deposited data

How the results depend on the processing

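With 2 libraries per genotype, calls of the 40 genes moved with the setting. Members called in *Ikzf3*N159S/N159S against *Ikzf3*+/+ T cells numbered 1 under the legacy test and 1 under the replicate block (*Plcg1* in both), 2 under DESeq2 (*Plcg1* and *Lcp2*), 2 with no filter on low counts (*Plcg1*, lower, and *Sla2*, higher), and 8 with the block for genes detected. Members called in *Ikzf3*+/N159S numbered 3 under DESeq2 and 3 with no filter on low counts (*Nfatc2*, *Plcg1* and *Sos1* in both), 0 under the replicate block and 7 with the block for genes detected. Between the variant genotypes, 1 member passed under DESeq2 and 1 with no filter (*Ptpn6* in both), and 3 passed with the block for genes detected, where 7 members also departed from the midpoint. With no filter 21296 genes were tested, against 12117 with it. Over all genes, no filter gave 542 calls in *Ikzf3*+/N159S (212 with the filter) and 486 between the variant genotypes (201 with it). The member counts under DESeq2, and those in *Ikzf3*N159S/N159S with no filter, are given without the share over all genes. They are not read as a result about the members. The block for genes detected gave 1756, 1422 and 877 calls, and the legacy test 631, 212 and 180. Of the 56 other pathway genes, 2 passed in *Ikzf3*N159S/N159S under the replicate block. With the block for genes detected 11 passed in *Ikzf3*N159S/N159S and 11 in *Ikzf3*+/N159S, where 14.5% and 11.7% of all genes did. The cause of these differences was not tested.

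Replicate numbers are shared by the genotypes only as numbers. Deviations of same-numbered libraries correlated at -0.17, -0.22 and 0.24 over 12117 genes, so the numbers did not pair the libraries. Under the replicate block, all genes called numbered 514, 170 and 168 in the 3 comparisons.

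With each library left out in turn, members called ranged from 0 to 2 in *Ikzf3*N159S/N159S, from 0 to 1 in *Ikzf3*+/N159S, and stayed at 0 between the variant genotypes and for the midpoint. The lone library of a genotype was then assumed to vary like the others. All genes called ranged from 221 to 751, from 68 to 250 and from 62 to 205, and other pathway genes called from 1 to 5 in *Ikzf3*N159S/N159S and from 0 to 3 in *Ikzf3*+/N159S. The median log2 fold change of the members ranged from -0.11 to -0.059 in *Ikzf3*N159S/N159S, from -0.16 to -0.11 in *Ikzf3*+/N159S, and from 0.0063 to 0.082 between the variant genotypes. Some values that passed no test turned sign in at least 1 of these fits. Their log2 fold changes in *Ikzf3*N159S/N159S ranged from -0.00014 to 0.080 for *Cd3d*, from -0.15 to 0.050 for *Lat* and from -0.013 to 0.18 for *Zap70*. In *Ikzf3*+/N159S they ranged from -0.38 to 0.020 for *Cd3e*, from -0.11 to 0.098 for *Cd3g*, from -0.19 to 0.017 for *Lat* and from -0.086 to 0.030 for *Zap70*. Between the variant genotypes they ranged from -0.078 to 0.029 for *Lck*, from -0.19 to 0.016 for *Lcp2*, from -0.27 to 0.021 for *Plcg1* and from -0.082 to 0.048 for *Ptprc*.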
